A study of Mus musculus with 2 samples.

Results

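The 49 genes described here encode the subunits, activators, inhibitor and assembly factors of the mouse proteasome. They are all protein-coding genes whose symbol begins with Psm, followed by a letter from a to g and a number, and they were taken by name from 55536 annotated genes, of which 22028 were protein-coding. Their RNA was measured on chromatin from bone marrow-derived macrophages of the C57BL/6J mouse strain, treated for 75 min with 100 ng/ml lipid A, the part of bacterial lipopolysaccharide that engages the receptor TLR4. There is 1 group with 2 libraries, labelled as biological replicates: the starting RNA was 500 ng for replicate 2 and 250 ng for replicate 1, fragments measured 250 to 400 bases, and ribosomal RNA was depleted before sequencing. Both carry the same donor label, sex and age were not collected, and nothing says that the cultures came from separate mice, so an SD may be technical. No untreated cells, other time or other fraction were analysed here, so no value below is a response to lipid A, and no p-value is given.

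The proteasome is the protease that degrades ubiquitin-tagged proteins in the cytosol and nucleus. Its 20S core is a barrel of alpha and beta rings with catalytic beta subunits inside, and the 19S regulator, made of ATPases and non-ATPase subunits, binds ubiquitin, unfolds the substrate and feeds it into the core. In cells exposed to interferon, and in many immune cells, the catalytic subunits Psmb5, Psmb6 and Psmb7 are replaced in new cores by Psmb8, Psmb9 and Psmb10, which form the immunoproteasome and change the peptides available to MHC class I. RNA held on chromatin includes many transcripts that are unfinished or not yet spliced, so these levels are not those of finished mRNA or of protein.

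The annotated genes held 29638814 estimated counts in replicate 2 and 21453617 in replicate 1, and protein-coding genes took 66.2% and 47.0% of them. The genes Gm26917, Gm42418 and CT010467.1, annotated over ribosomal RNA sequence, took 12.7% of the counts in replicate 2 and 41.6% in replicate 1. TPM, the count per effective length scaled to a fixed sum over the whole table, depends on such shares, and their part in each TPM difference was not tested. The summed counts of the 49 genes were 0.156% of protein-coding counts in replicate 2 and 0.170% in replicate 1. Macrophage identity was checked on 8 markers, of which 7 reached 1 TPM in both libraries, with a summed TPM of 571 in replicate 2 and 358 in replicate 1. Between the libraries, scaled as described further on, Csf1r and Itgam were more than 2-fold lower in replicate 2 (log2 ratios of -1.11 and -1.19) and Spi1 was at -0.71; the part of these shifts in the differences between the libraries was not tested. None of 15 markers of T and B cells, dendritic cells, neutrophils and stromal cells reached that level in both, and their summed TPM was 2.44 and 1.49; the stromal Col1a1, with 0.56 and 0.16 TPM, was past 2-fold higher in replicate 2 (log2 ratio 1.04). Cd3e, Ly6g and Elane were listed at 0 in both replicates. Cd3d stood at 28.8 TPM in replicate 2 and 13.0 TPM in replicate 1 in a separate transcript quantification deposited by the authors, called the second quantification below, against 0.00 and 0.02 TPM in the first, which is used unless stated. Pecam1 stood at 8.67 and 3.36 TPM in the second quantification, against 0.29 and 0.14 TPM in the first.

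With expression set at 1 TPM or above in each library, 41 of the 49 proteasome genes (83.7%) were expressed, beside 7633 of all protein-coding genes (34.7%). Their count was 44 in replicate 2 alone and 41 in replicate 1 alone. The expressed proteasome genes had a median of 14.8 TPM in replicate 2 and 9.22 TPM in replicate 1, beside 10.4 and 5.82 TPM for all expressed protein-coding genes. The 8 genes not expressed in both were the tissue-restricted Psma8 and Psmb11, the 4 core assembly chaperones Psmg1, Psmg2, Psmg3 and Psmg4, the catalytic subunit Psmb5 and the 19S assembly chaperone Psmd10. In the second quantification 44 genes were expressed, and Psmb5 (3.24 TPM in replicate 2 and 1.39 TPM in replicate 1), Psmd10 (2.79 and 1.23 TPM) and Psmb11 (2.17 and 1.25 TPM) were among them. In bulk RNA such as this, fewer cells of a type and less RNA per cell cannot be told apart. TPM was higher in replicate 2 for 47 genes and lower for 1, Psma8 (4 and 6 counts), while Psmb11 was listed at 0 in both. The share over all genes was not computed, but the median of all expressed protein-coding genes was also higher in replicate 2. On the scaled counts described further on, 17 of the 44 proteasome genes compared were higher in replicate 2 and 27 lower.

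**Figure D1:**
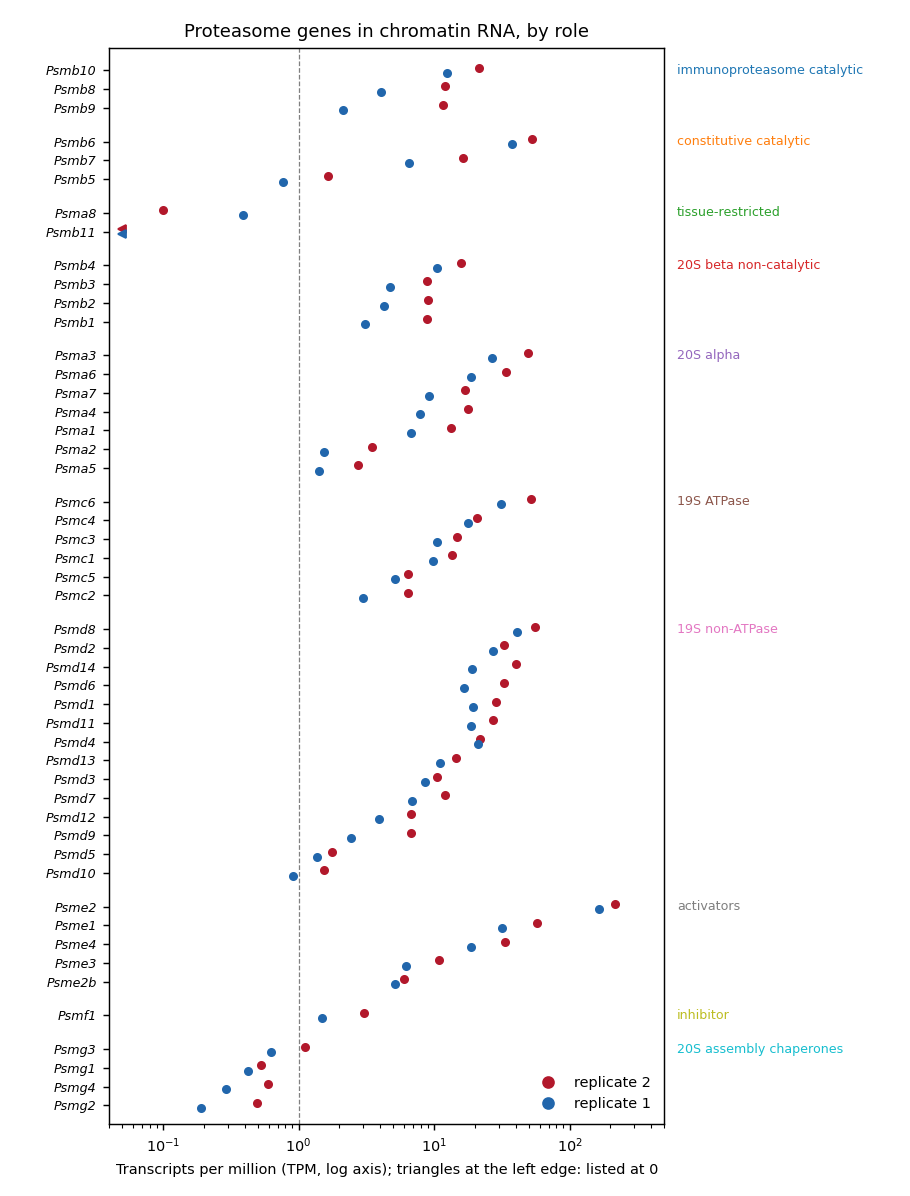
TPM of each of the 49 proteasome genes on a log axis, with replicate 2 in red and replicate 1 in blue, grouped by role and sorted by mean; the dashed line marks 1 TPM and triangles at the left edge mark genes listed at 0. Psme2 lies alone at the right, with 217.65 TPM in replicate 2 and 166.21 TPM in replicate 1, and all 4 Psmg genes lie near or below the dashed line.

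Psmb9 and Psmb8, on which the comparison of catalytic subunits turns, lie in the MHC region of chromosome 17 (all positions are on mm10, with GENCODE M21 gene extents). Psmb9 (ENSMUSG00000096727.3) is at chr17:34181987-34187764 on the minus strand and Psmb8 (ENSMUSG00000024338.15) at chr17:34197721-34201454 on the plus strand. Between them lies Tap1, at chr17:34187553-34197225 on the plus strand, which encodes a subunit of the transporter that carries peptides into the endoplasmic reticulum. The annotated extents of Psmb9 and Tap1 overlap by 212 bases at their start regions, and Tap1 ends 495 bases before Psmb8. Psmb10 (ENSMUSG00000031897.9) lies apart, at chr8:105935735-105938444 on the minus strand.

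The start regions of the 3 immunoproteasome subunits and of the activator subunits Psme1 and Psme2 are shown because these are among the interferon-responsive genes of the family, and because Psmb9 and Tap1 share theirs. Each window runs from 250 bases before to 50 bases after a RefSeq start on GRCm38.p6, 5′ to 3′ on the gene's own strand. Capitals mark a match to any of 5 motifs searched on both strands: the interferon-stimulated response element core GAAANNGAA, the interferon gamma-activated site GAS written as TTCNNNGAA, the NF-kB site core GGANTTTCC, the antioxidant element core TGACNNNGC and the CCAAT box. The windows are Psmb9 at chr17:34187281-34187580 on the minus strand, Psmb8 at chr17:34197945-34198244 on the plus strand, Psmb10 at chr8:105938343-105938642 on the minus strand, Psme1 at chr14:55578244-55578543 on the plus strand and, of 2 windows of Psme2, the one at chr14:55591052-55591351 on the minus strand.
Psmb9: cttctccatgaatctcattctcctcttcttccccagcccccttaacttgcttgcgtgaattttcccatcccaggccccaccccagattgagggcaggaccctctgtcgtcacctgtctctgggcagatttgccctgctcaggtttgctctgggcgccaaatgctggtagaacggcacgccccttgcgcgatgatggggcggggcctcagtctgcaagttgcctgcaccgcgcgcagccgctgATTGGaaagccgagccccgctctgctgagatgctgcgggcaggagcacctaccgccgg
Psmb8: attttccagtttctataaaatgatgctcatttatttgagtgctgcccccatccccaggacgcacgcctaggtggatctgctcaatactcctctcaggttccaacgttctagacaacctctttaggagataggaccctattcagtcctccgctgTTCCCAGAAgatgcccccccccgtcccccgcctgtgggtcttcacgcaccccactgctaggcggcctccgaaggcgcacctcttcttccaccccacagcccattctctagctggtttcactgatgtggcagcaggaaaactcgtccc
Psmb10: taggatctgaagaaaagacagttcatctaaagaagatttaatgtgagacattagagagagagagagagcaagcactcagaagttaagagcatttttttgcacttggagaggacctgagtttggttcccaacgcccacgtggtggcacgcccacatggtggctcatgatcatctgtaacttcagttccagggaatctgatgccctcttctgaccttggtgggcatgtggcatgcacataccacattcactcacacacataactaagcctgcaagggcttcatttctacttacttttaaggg
Psme1: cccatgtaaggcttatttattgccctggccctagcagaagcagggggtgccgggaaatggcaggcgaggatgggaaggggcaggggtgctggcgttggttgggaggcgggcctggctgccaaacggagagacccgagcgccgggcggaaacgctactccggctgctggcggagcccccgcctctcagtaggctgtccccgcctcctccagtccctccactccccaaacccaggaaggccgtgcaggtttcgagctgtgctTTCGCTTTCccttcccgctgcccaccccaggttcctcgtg
Psme2: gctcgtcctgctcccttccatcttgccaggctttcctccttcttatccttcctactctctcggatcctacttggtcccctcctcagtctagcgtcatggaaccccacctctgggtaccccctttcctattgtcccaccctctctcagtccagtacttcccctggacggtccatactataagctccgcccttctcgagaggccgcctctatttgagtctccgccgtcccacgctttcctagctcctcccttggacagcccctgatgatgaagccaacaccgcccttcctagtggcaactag

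The Psmb9 window holds a CCAAT box on its opposite strand at position -8 relative to the RefSeq start, and reaches over the RefSeq start of Tap1, which lies 226 bases away on the other strand. In the Psmb8 window the sequence TTCCCAGAA, a GAS match, begins at position -97. The Psme1 window holds TTCGCTTTC, the reverse complement of an interferon element core, from position 11, while the Psmb10 window and both Psme2 windows hold no match. Over the family, 41 of 49 genes had a RefSeq window, 44 windows in all. The interferon element core was found in 7 of these 44 (15.9%), beside 8.56% of all 32851 RefSeq windows of the same length. The GAS motif was in 3 (6.82%, beside 8.30%), the NF-kB core in 0 (beside 1.25%), the antioxidant core, to which the proteasome regulator Nfe2l1 can bind, in 6 (13.6%, beside 12.4%) and the CCAAT box in 14 (31.8%, beside 37.4%). A match describes these letters and is no evidence of binding, and the RefSeq starts lie 434 bases from the outer GENCODE start for Psmb9, 474 for Psmb8, 371 for Psme1, 52 for Psmb10 and 12 for the Psme2 window shown.

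The immunoproteasome catalytic subunits were all expressed, but with less RNA in sum than their constitutive counterparts and at levels that differed between the libraries. Psmb10, the trypsin-like immunosubunit, had 21.44 TPM in replicate 2 and 12.39 TPM in replicate 1 (16.9 ± 6.40, SD, n = 2). Psmb8, the chymotrypsin-like immunosubunit, had 12.01 and 4.03 TPM (8.02 ± 5.64), and Psmb9, which replaces the caspase-like subunit, had 11.71 and 2.11 TPM (6.91 ± 6.79). Psmb10 was highest by TPM in both replicates. Of its TPM, 8.13 in replicate 2 and 2.73 in replicate 1 lay on a transcript annotated as processed transcript. That transcript had 50.27 and 15.05 counts, so the size of the lead depends on it. The authors' deposited intervals of Psmb8 and Psmb9, whose level is not stated, overlapped each other in each replicate: 10.9 to 13.3 TPM for Psmb8 and 10.6 to 13.2 TPM for Psmb9 in replicate 2, and 3.4 to 5.29 and 1.96 to 3.68 TPM in replicate 1.

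The constitutive catalytic subunits spread over a wider range. Psmb6, the caspase-like subunit, had 52.41 TPM in replicate 2 and 37.32 TPM in replicate 1 (44.9 ± 10.7, n = 2) and ranked 3 among the 49 genes by the mean. Psmb7, the trypsin-like subunit, had 16.32 and 6.54 TPM (11.4 ± 6.92), and Psmb5, the chymotrypsin-like subunit, had 1.66 and 0.77 TPM (1.21 ± 0.629) from 35 and 15 counts. The order Psmb6, Psmb7, Psmb5 was the same in both libraries, with deposited intervals that did not overlap. For Psmb5, 71.7% of the 31-base words of its transcripts also occur in transcripts of other genes, chiefly in the processed pseudogene Gm3375, which was listed at 0, so how the quantification split such reads bears on its value.

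The subunits were then taken as pairs that occupy the same site in the core. By gene TPM, the immunosubunit was higher at beta 5 and beta 2 and lower at beta 1, in both libraries. Psmb8 was 7.23 times Psmb5 in replicate 2 and 5.23 times in replicate 1. Psmb10 was 1.31 and 1.89 times Psmb7, and Psmb9 was 0.223 and 0.0565 times Psmb6. Without the 8.13 TPM on its processed transcript, Psmb10 would lie below Psmb7 in replicate 2. On protein-coding transcripts alone Psmb10 stayed above Psmb7, at 1.55 and 1.19 times. The second quantification gave the same directions, with ratios of 3.78 and 2.6, 2.33 and 2.66, and 0.265 and 0.0666. Restricted to transcripts annotated as protein-coding, the Psmb8 to Psmb5 ratio was 0.307 in replicate 2 and 1.17 in replicate 1, so the direction at beta 5 in replicate 2 turned. The value of 1.17 rests on a Psmb8 transcript with 0.73 TPM from 12.92 counts. In the second quantification, the protein-coding transcripts of Psmb8 were together below Psmb5 in both libraries. They had 0.252, 0.621 and 0.473 TPM in replicate 2, beside 3.24 for Psmb5, and 0.297 and 0.314 TPM in replicate 1, beside 1.39. In sum, the immunosubunits had 45.2 TPM in replicate 2 and 18.5 TPM in replicate 1 (31.8 ± 18.8), the constitutive subunits 70.4 and 44.6 TPM (57.5 ± 18.2), and the immunosubunits made up 39.1% and 29.3% of the 6 (34.2% ± 6.89). The median log2(TPM + 1) of the immunosubunits minus that of the constitutive subunits was -0.41 in replicate 2 and -0.58 in replicate 1 (-0.50 ± 0.12, SD, n = 2), and it was not tested.

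**Figure D2:**
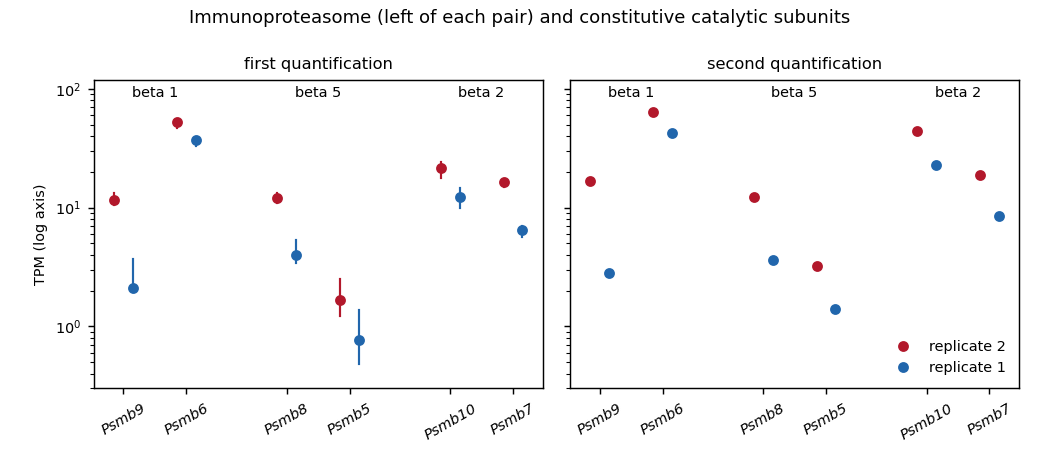
TPM on a log axis of the immunoproteasome and constitutive catalytic subunits paired by site, in the first quantification (left, vertical lines are the deposited intervals) and the second quantification (right), with replicate 2 in red and replicate 1 in blue. Psmb9 lies below Psmb6, while Psmb8 lies above Psmb5 and Psmb10 above Psmb7, in all 4 sets of values.

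Between the libraries, Psmb9 stood apart. Counts were scaled by TMM, the trimmed mean of M values, which sets most genes to a ratio near 1, and genes were compared where both libraries together held at least 20 counts, which 44 of the 49 did. Psmb9 had 680.23 estimated counts in replicate 2 and 116.00 in replicate 1, a log2 ratio of 1.52 (95% interval 1.24 to 1.82 for counting error only) or 2.87-fold. It was the 1 proteasome gene past 2-fold upward in replicate 2, and 0 were past 2-fold downward. By the same rule 5.76% of 10981 protein-coding genes were higher and 4.38% lower, and of all 14442 genes 9.29% were higher and 4.55% lower, so 1 call among 44 is no more than the background share. A ratio as high as that of Psmb9 or higher was found for 1.81% of the protein-coding genes. These are differences between libraries of 1 group, which had different amounts of starting RNA; how that amount bears on them was not tested.

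Psmb8 came next, with 501.71 and 132.00 counts and a log2 ratio of 0.90 (0.62 to 1.19), a value reached or passed by 7.76% of protein-coding genes. Psmb10, with 308.00 and 187.00 counts, did not go the same way: its log2 ratio was -0.31 (-0.57 to -0.04). Of the constitutive subunits, Psmb7 had 0.50 (0.35 to 0.66), Psmb5 0.19 (-0.71 to 1.17) and Psmb6 -0.43 (-0.58 to -0.27). The median ratio of the immunosubunits minus that of the constitutive subunits was 0.71 on the log2 scale, with a counting error of 0.99 that comes mostly from the few counts of Psmb5. Without the 3 immunosubunits the 41 other tested genes ranged from -0.71 to 0.61, with a median of -0.07, beside -0.03 for tested protein-coding genes. Scaled by library size alone, the protein-coding median was 0.52, and 5 proteasome genes passed 2-fold upward: Psmb9, Psmb8, Psmb1, Psmd9 and Psmb7.

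**Figure D3:**
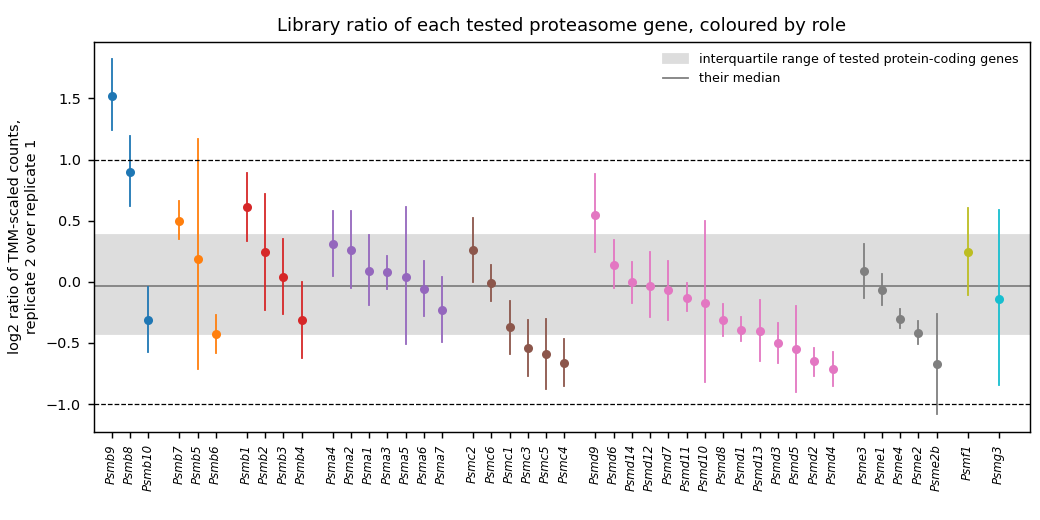
Log2 ratio of TMM-scaled counts, replicate 2 over replicate 1, for the 44 tested proteasome genes grouped and coloured by role, immunosubunits first; vertical lines are 95% intervals for counting error, the grey band holds the interquartile range of protein-coding genes and dashed lines mark 2-fold. Psmb9 at 1.52 is the 1 gene beyond a dashed line, with Psmb8 next at 0.90.

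Psmb9, Tap1 and Psmb8, which adjoin each other on chromosome 17, had log2 ratios of 1.52, 0.86 and 0.90. Tap1 had 3671.77 and 991.00 counts and an interval of 0.76 to 0.97. Tap2, the other transporter subunit, begins 2072 bases after the end of Psmb8 and had a log2 ratio of -0.35 (-0.54 to -0.16), the opposite sign. Psmb9 and Tap1 lie on opposite strands, and 4.79% of the 31-base words of Psmb9 transcripts also occur in Tap1 transcripts. No source used here states whether the quantification used strand, so reads from the overlap cannot be told apart. Of the other genes of antigen presentation and interferon signalling examined, the MHC class I light chain B2m had 0.72 and the peptide-loading factor Tapbp 0.36. The transcription factor Irf1 had 0.29, and Nlrc5, a transactivator of MHC class I genes, had -0.66. None of the 7 genes of this list passed 2-fold in either direction, and all 7 were expressed, from Tap2 with 7.44 and 5.06 TPM to Irf1 with 351.30 and 157.25 TPM.

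**Figure D4:**
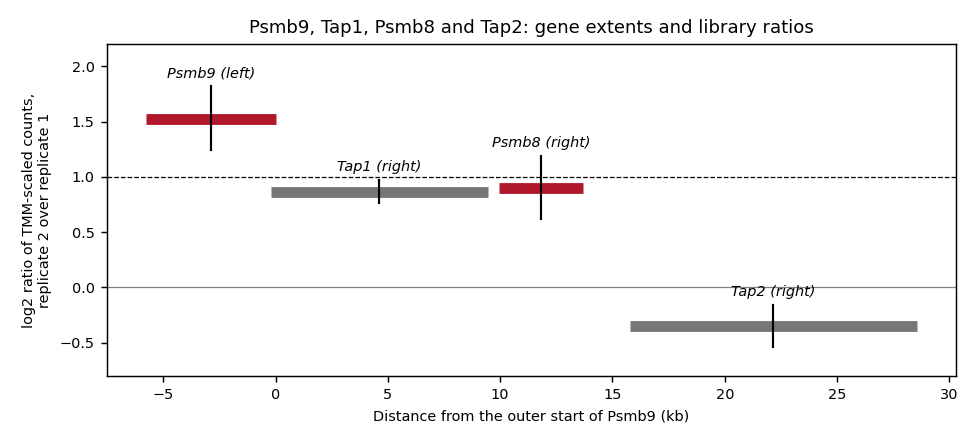
Extent of Psmb9, Tap1, Psmb8 and Tap2 along the chromosome (horizontal axis, kb from the outer start of Psmb9) against the log2 library ratio of each (replicate 2 over replicate 1, vertical axis, TMM-scaled), with proteasome genes in red and neighbours in grey. Black lines are 95% counting intervals, words in brackets give the direction of transcription and the dashed line marks 2-fold: the first 3 genes lie between 0.86 and 1.52, and Tap2 lies at -0.35.

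The tissue-restricted subunits were at or near 0. Psmb11, the thymus-specific catalytic subunit, is at chr14:54621433-54629556 on the plus strand, 3410 bases from Psmb5, and was listed at 0 in both replicates. The second quantification gave it 390 estimated counts in replicate 2 and 224 in replicate 1, or 2.17 and 1.25 TPM, all on 1 of its 2 annotated transcripts, so the quantifications differ on whether it was detected. Psma8, the testis-specific alpha subunit, had 0.10 and 0.39 TPM from 4 and 6 counts.

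The alpha subunits, which form the outer rings and the gate of the core, were all 7 expressed, with a median of 16.9 TPM in replicate 2 and 7.85 TPM in replicate 1 (12.4 ± 6.39, n = 2). Psma3 was highest, with 49.70 and 26.83 TPM, and Psma5 lowest, with 2.76 and 1.42 TPM. Of the 31-base words of Psma5, 61.0% are shared with other genes. All of the Psma5 TPM lay on protein-coding transcripts. On such transcripts alone, Psma7 was below Psma5 in replicate 2 (1.81 TPM) but not in replicate 1 (2.29 TPM). Psma6 was highest on them, with 11.28 and 6.44 TPM, beside 6.33 and 2.15 TPM for Psma3. Psma2 was nearly as low, with 3.47 and 1.53 TPM, but had 26.7 and 12.3 TPM in the second quantification, where 22.6 and 10.4 TPM were on a transcript with 0.00 TPM in the first. Log2 library ratios of the alpha genes ran from -0.23 to 0.31.

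The 4 non-catalytic beta subunits, structural members of the inner rings, lay closer together than the alpha genes, with a median of 8.90 TPM in replicate 2 and 4.5 TPM in replicate 1 (6.70 ± 3.11). Psmb4 was highest, with 15.69 and 10.55 TPM, and Psmb1 lowest by the mean, with 8.84 and 3.1 TPM; Psmb3 was at 8.81 TPM in replicate 2 and 4.74 TPM in replicate 1. The deposited intervals of Psmb3 and Psmb2, and of Psmb2 and Psmb1, overlapped in both replicates. Psmb1 had the largest library ratio outside the immunosubunits, 0.61 (0.33 to 0.89).

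The ATPases of the 19S base, which unfold substrates, were all 6 expressed, with a median of 14.2 TPM in replicate 2 and 10.1 TPM in replicate 1 (12.2 ± 2.86). Psmc6 led with 51.87 and 31.02 TPM, and Psmc2 was lowest by the mean, with 6.46 and 3.01 TPM, beside 6.46 and 5.13 TPM for Psmc5. In the second quantification Psmc5 was the lower of these, with 9.06 and 6.7 TPM, beside 16.2 and 7.16 TPM for Psmc2. On protein-coding transcripts alone Psmc1 was highest, with 10.01 and 6.86 TPM, beside 8.27 and 4.02 TPM for Psmc6. Psmc5 was lowest on them, with 2.11 and 1.29 TPM. The median log2 library ratio of the 6 ATPases was -0.46, from -0.66 for Psmc4 to 0.26 for Psmc2.

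Of the 14 non-ATPase subunits, 13 were expressed, with a median of 18.3 TPM in replicate 2 and 13.9 TPM in replicate 1 (16.1 ± 3.11). Psmd8, a lid subunit, was second in the family by the mean, with 55.34 and 41.24 TPM, though Psme1 was above it in replicate 2. The 3 base subunits Psmd1, Psmd2 and Psmd4 (a ubiquitin receptor) had a median of 28.8 and 21 TPM, and the 8 lid subunits 20.8 and 13.9 TPM. The 3 assembly chaperones of the base, Psmd5, Psmd9 and Psmd10, had a median of 1.76 and 1.36 TPM. Psmd10, also known as gankyrin, was the lowest of the 14 by gene TPM and fell under 1 TPM in replicate 1. It had 1.53 TPM in replicate 2 and 0.91 TPM in replicate 1 (58.00 and 32.00 counts), all on protein-coding transcripts. On such transcripts alone, Psmd5 (0.58 and 0.41 TPM) and Psmd9 (0.96 and 0.55 TPM) were lower than Psmd10. Library ratios were lowest for the base subunits, with a median log2 of -0.65, beside -0.10 for the lid, and none passed 2-fold.

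The activators, which cap the core in place of the 19S regulator, held the highest gene TPM in the family. Psme2, a subunit of the interferon-inducible PA28 cap, is at chr14:55587441-55591113 and had 217.65 TPM in replicate 2 and 166.21 TPM in replicate 1 (192 ± 36.4, n = 2), with deposited intervals of 191 to 235 and 141 to 185 TPM. Psme1, its partner in that cap, is at chr14:55578123-55581529 on the other strand, 5911 bases away, and had 57.11 and 31.77 TPM (44.4 ± 17.9). Psme4, which encodes the nuclear activator PA200, had 33.27 and 18.86 TPM (26.1 ± 10.2), and Psme3, which encodes the nuclear PA28 gamma, 10.90 and 6.18 TPM (8.54 ± 3.34). Psme2b, a near copy of Psme2, had 6.00 and 5.14 TPM (5.57 ± 0.608), but 78.4% of its 31-base words are shared with other genes, 76.5% with Psme2, so its reads and those of Psme2 may be split wrongly. Of the Psme2 TPM, 45.20 in replicate 2 and 40.84 in replicate 1 lay on 1 transcript annotated as retained intron, with 22.38 and 17.20 counts. On protein-coding transcripts alone Psme2 had 27.68 and 20.29 TPM, beside 22.08 and 12.92 TPM for Psmd8. The lead of Psme2 was thus smaller on such transcripts. By gene TPM, the order Psme2, Psme1, Psme4, Psme3, Psme2b was the same in both replicates of the first quantification. In the second, Psme4 was above Psme1, with 69.3 TPM in replicate 2 and 30.1 TPM in replicate 1, beside 45.5 and 26 TPM. Neighbours in the first order had deposited intervals that did not overlap, except Psme3 (5.21 to 7.59 TPM) and Psme2b (3.95 to 6.00 TPM) in replicate 1. TMM-scaled log2 ratios were -0.42 (-0.51 to -0.32) for Psme2, -0.07 (-0.19 to 0.06) for Psme1, -0.30 (-0.38 to -0.22) for Psme4, 0.09 (-0.13 to 0.31) for Psme3 and -0.67 (-1.08 to -0.26) for Psme2b. The PA28 genes thus did not share the upward library ratio of Psmb9 and Psmb8.

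Psmf1, which encodes the inhibitor PI31, had 3.05 TPM in replicate 2 and 1.5 TPM in replicate 1 (2.27 ± 1.10). The chaperones that assemble the 20S core were the lowest group after the tissue-restricted pair, with a median of 0.560 and 0.355 TPM (0.458 ± 0.145). Psmg3 had 1.12 and 0.63 TPM, Psmg1 0.53 and 0.42 TPM, Psmg4 0.59 and 0.29 TPM and Psmg2 0.49 and 0.19 TPM, from 2 to 50 counts. At this depth 3 counts equal 0.101 CPM in replicate 2 and 0.140 CPM in replicate 1, so Psmg4 and Psmg2 rest on a handful of reads, and their order cannot be read.

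Of 12 further genes that act with the proteasome, 11 were matched by symbol and all 11 were expressed, with a median of 21.1 TPM in replicate 2 and 12.2 TPM in replicate 1; Paaf1 was not matched. Ecpas, which scaffolds the proteasome, had 58.36 and 17.99 TPM. Nfe2l1, the transcription factor that induces proteasome genes when the protease is inhibited, had 47.78 and 33.11 TPM. Its activating protease Ddi2 had 3.33 and 1.77 TPM, and Pomp, the maturation factor of the core, 12.66 and 12.48 TPM. Akirin2, which brings proteasomes into the nucleus, had a log2 library ratio of 0.89 (0.53 to 1.27), and the small 19S subunit Sem1 0.84 (0.66 to 1.01). None passed 2-fold, and the list's median was -0.07.

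Much of the RNA of these genes was assigned to transcripts annotated as retaining an intron, that is, not fully spliced. Of the expressed proteasome genes, 29 have such a transcript, and its median share of the gene's TPM was 63.0% in replicate 2 and 65.0% in replicate 1 (64.0% ± 1.40, n = 2). The median was 47.2% and 44.7% for the 5233 expressed protein-coding genes that also have such a transcript. The share was above 50% in both replicates for 16 of the 29 (55.2%), beside 36.3% of those 5233 genes. It was higher in replicate 2 for 12 of the 29. Among the immunosubunits it was 95.8% and 77.7% for Psmb8, 85.6% and 80.5% for Psmb9 and 49.5% and 65.0% for Psmb10. For the constitutive Psmb6 it was 79.1% and 71.1% and for Psmb7 89.3% and 79.4%, while Psmb5 has no such transcript in the annotation. Psme2 had 87.3% and 87.8%, and Psmc1 had the least, 4.14% in replicate 2 and 16.1% in replicate 1.

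Summed by class and scaled, the protein-coding transcripts of Psmb8, Tap1 and the constitutive Psmb7 were lower in replicate 2 and their intron-retaining transcripts higher. With the TMM factors, a raw count ratio of 2.03 is no change. In Psmb8 the intron-retaining transcripts had 479 counts in replicate 2 and 112 in replicate 1, a raw ratio of 4.27 (2.1 after scaling). Its protein-coding transcripts had 22.5 and 19.8, a raw ratio of 1.14 (0.561 after scaling). This lower coding sum rests on a transcript with 0.00 counts in replicate 2 and 12.92 in replicate 1. The other detected coding transcript of Psmb8 went the opposite way, with 22.52 and 6.85 counts. In Tap1 the scaled ratios were 2.12 (3529 and 820 counts) and 0.411 (142 and 171 counts). In Psmb9 both classes were higher in replicate 2, with 625 and 109 counts, a scaled ratio of 2.83, for intron-retaining transcripts and 55.6 and 7.03 counts, a scaled ratio of 3.9, for protein-coding ones. In Psmb10 both scaled ratios were below 1, at 0.674 (166 and 121 counts) and 0.892 (92 and 50.9 counts). Psmb7 had 1.49 (1214 and 401 counts) for its intron-retaining transcript and 0.690 (51.3 and 36.7 counts) for its protein-coding one. Both classes were below 1 in Psmb6 (0.840 and 0.544) and Psme2 (0.767 and 0.713). Counts of single transcripts are estimates that divide reads shared between transcripts, and no interval was computed for them.

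**Figure D5:**
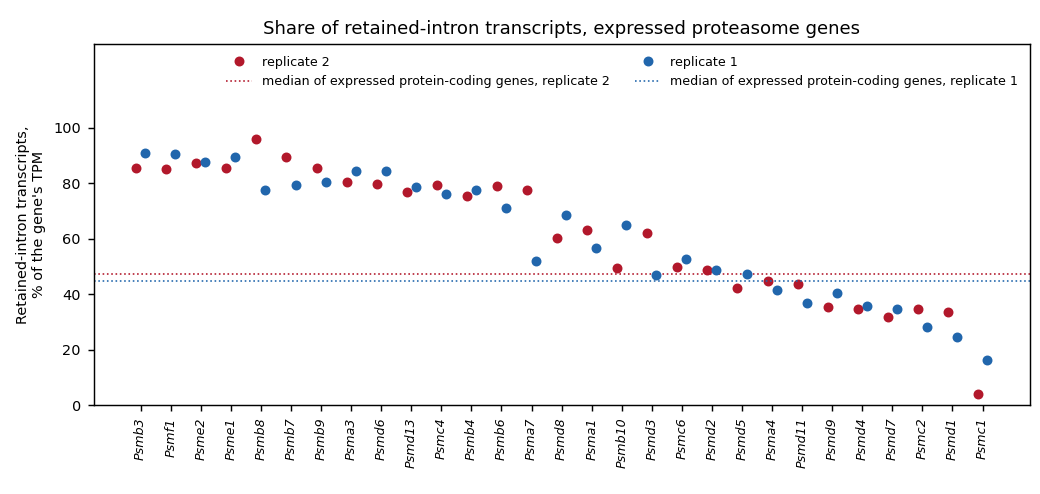
Percent of each gene's TPM on transcripts annotated as retained intron for the 29 expressed proteasome genes that have one, sorted by mean, with replicate 2 in red and replicate 1 in blue. Dotted lines are the medians of expressed protein-coding genes that have such a transcript, 47.2% in replicate 2 and 44.7% in replicate 1. Values reach from 95.8% for Psmb8 in replicate 2 to 4.14% for Psmc1 in replicate 2.

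Across the family, the second quantification gave a median of 1.54 times the TPM of the first, from 0.650 to 7.79 times, and more than 2 times for 9 genes. More than 20% of 31-base words were shared with other genes for 10 members, more than 50% for 3 (Psmb5, Psma5 and Psme2b), and no word was shared for 13. Another gene overlapped 23 of the 49, on the opposite strand for 18. Psmb7 overlaps Nek6 by 6571 bases, and Psmb10 lies wholly within its antisense gene Gm16156, which had 3.24 and 3.56 TPM. The deposited TPM intervals of the replicates did not overlap for 32 of the 49 genes. Such intervals were not counted over all genes, so this number is no result about the family. These intervals need not hold the deposited estimate: that of Psma8 in replicate 2 ran from 0.205 to 1.03 TPM, beside its 0.10 TPM.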

How the data were processed

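The authors deposited, for each library, estimated (expected) counts and TPM per gene and per transcript, made from reads aligned to the mm10 transcriptome (GENCODE M21), with lower and upper bounds of TPM whose level is not stated. The second quantification is another transcript table of estimated counts and TPM, which the authors made from the reads without that alignment, against an index of transcripts. Column names are those RSEM and kallisto write, per the file headers; aligner, quantifier, versions and strand setting: not given in the sources used here. Transcript values of the second quantification were summed per gene.

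Expected counts were rounded and scaled by TMM (edgeR 4.0.16, R 4.3.3) over annotated genes, with factors of 1.21 for replicate 2 and 0.824 for replicate 1 and a prior count of 0.5. Intervals of ratios are exact (Clopper-Pearson) 95% binomial intervals; reads without molecular identifiers are not independent molecules, so both intervals and floors are for counting error alone. Rows that name no annotated gene (26345, holding 0.277% and 0.409% of counts) were left out. The script was tested on simulated data. Alternatives were DESeq2 1.42.0 size factors, library size alone, the second quantification, TPM rescaled over protein-coding genes, other thresholds and a pseudocount of 0.1. Shared words were counted over 31 bases. Every catalytic subunit and activator is named; in other role groups the highest, the lowest, any under 1 TPM and any past 2-fold. Genes outside this rule were named after their values were seen: Psma2 for its second quantification, Psmb3 and Psmc5 as neighbours of the lowest of their groups, Psmc4 for its library ratio, Psmc1 for its intron share, and Psmd9 for its ratio by library size. Values on protein-coding transcripts were given for Psma3, Psma6, Psma7, Psmb1, Psmb3, Psmb4, Psmc1, Psmc5, Psmc6, Psmd5, Psmd8, Psmd9 and Psme2, also after they were seen. Psma6 was named only for these values. Values of single transcripts were given for Psmb8, Psmb10 and Psme2 after they were seen. The genes, roles and lists were chosen with earlier results of these data known. Some genes of the lists are not reported here by name. Figures were drawn with matplotlib 3.10.9.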

Additional observations from a re-analysis of the deposited data

Results flagged for a closer look

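Psmb11, the thymus-specific catalytic subunit, was listed at 0 in both replicates of the gene tables, while the second quantification, which the main comparisons do not use, gave it 390 estimated counts in replicate 2 and 224 in replicate 1. Both values are above the 3 counts that a count of 0 allows. All of them were on 1 of its 2 annotated transcripts, and the cause of the difference was not tested.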

How the results depend on the processing

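No paired analysis was possible because the 2 libraries form 1 group, so no groups share replicate numbers. The count of expressed proteasome genes was 41 to 44 with either replicate left out, 44 in the second quantification, 47 with TPM over protein-coding genes and 29 at 5 TPM. The immunoproteasome minus constitutive level (main value -0.50) was -0.58 to -0.41 with either replicate left out and -0.17 on protein-coding transcripts alone, and stayed negative with a pseudocount of 0.1 (-0.56) and in the second quantification (-0.60). Genes past 2-fold upward (main count 1) were 5 by library size alone and 3 at 1.5-fold. Downward (main count 0), they were 5 at 1.5-fold and 1, Psma8, with no filter on low counts. Both counts were as in the main comparison with DESeq2 size factors and in the second quantification, where Psmb9 had 1.32. The difference of catalytic library ratios was 0.71 to 0.82 under its 4 alternatives, beside 0.71. A scaling factor cancels in this difference apart from the prior count, so DESeq2 factors (0.71) and library size (0.72) could not test it. The other alternatives gave 0.82 in the second quantification and 0.78 on TPM + 1. Of the 44 single ratios, DESeq2 factors moved 0, library size 39 and the second quantification 16 beyond the counting interval. Psmb9 was instead judged by whether it stayed past 2-fold and is not among those moved. Its library-size value of 2.08 also lay beyond its interval of 1.24 to 1.82. The second quantification is built on other counts, and library size alone shifts all genes. The median retained-intron share was 63.0% to 65.0% with either replicate left out, 61.9% in the second quantification and 57.3% on expected counts. With either replicate left out, median TPM was 7.85 to 16.9 for alpha, 4.5 to 8.90 for non-catalytic beta, 4.03 to 12 for immunoproteasome, 6.54 to 16.3 for constitutive, 0.05 to 0.195 for tissue-restricted, 10.1 to 14.2 for ATPase, 13.9 to 18.3 for non-ATPase, 18.9 to 33.3 for activator, 1.5 to 3.05 for inhibitor and 0.355 to 0.560 for core assembly genes. In the second quantification it moved beyond the SD to 19.5 for alpha, 11.3 for non-catalytic beta, 0.936 for tissue-restricted, 17.2 for ATPase, 20.6 for non-ATPase, 3.41 for inhibitor and 0.949 for core assembly genes. Rescaled over protein-coding genes, in the same order of all 10 groups, it was 61.9, 33.9, 38.4, 56.0, 0.797, 64.6, 86.1, 134, 11.5 and 2.39. On protein-coding transcripts alone it moved to 3.6 for alpha, 2.69 for non-catalytic beta, 1.29 for immunoproteasome, 1.54 for constitutive, 4.53 for ATPase, 6.00 for non-ATPase, 5.82 for activator and 0.295 for inhibitor genes. Leaving out transcripts or rescaling lowers or raises TPM by construction; the cause of the second quantification's values was not tested. Few or no counts in the first quantification limit Psmb11, Psma8, the Psmg genes and Psmb5, and 2 libraries with the same donor label limit every SD.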
